A study of Mus musculus with 16 samples.

Results

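The genes described here make up the switch by which a cell commits to DNA replication in G1: the D-type cyclin genes Ccnd1, Ccnd2 and Ccnd3, the kinase genes Cdk4 and Cdk6, the kinase inhibitor gene Cdkn1b, and the pocket protein genes Rb1, Rbl1 and Rbl2. They were selected by gene name, and all 9 were present among the 14552 genes of the deposited table of normalized read counts. All 9 also passed the filter for testing, a mean normalized count of 10 or more across the 16 libraries, which left 13355 genes.

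D-type cyclins bind CDK4 or CDK6, and the active kinases phosphorylate the pocket proteins RB, p107 and p130, which otherwise hold E2F transcription factors and their target genes in check. p27, the product of Cdkn1b, binds cyclin and CDK complexes and can block them. Mouse embryonic stem cells are often described as having a short G1 phase, low D-type cyclin activity and pocket proteins that are kept largely phosphorylated. Whether this holds in the medium used here was not tested. The pocket protein typical of cycling cells is p107, while p130 is typical of resting ones.

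The libraries came from mRNA of E14 cells, a mouse embryonic stem cell line, of the single genotype Ddx10-AID, Tir1. In these cells DDX10, an RNA helicase of ribosome assembly in the nucleolus, carries an auxin-inducible degron, and Tir1, an F-box protein from plants, lets auxin mark the tagged protein for destruction. There were 8 groups of 2 libraries: auxin (indole-3-acetic acid, 500 µM) for 2, 4, 6 or 12 h, for 1 day or for 2 days, auxin for 2 days followed by 2 days of withdrawal, and untreated cells with the same genotype. All groups grew on gelatin with serum, leukemia inhibitory factor, and the kinase inhibitors CHIR99021 and PD0325901; the second of these blocks MEK, a kinase upstream of Ccnd1 in many cell types. An auxin-treated line without the degron was not analysed here, so effects of auxin itself and of DDX10 loss cannot be told apart. Whether the line is 1 clone, and whether the 2 libraries of a group are separate cultures, the labels do not say; the spread behind the p-values may thus be technical.

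The libraries held an estimated 13.6 M to 17.5 M reads each, and the embryonic stem cell markers were present in all of them, with a summed level of 87060 to 107300. Single markers within this sum moved in different directions. Utf1 was at 1023 and 1110 after 12 h of auxin, against 5013 and 4490 in untreated cells. Pou5f1 was at 13539 and 13547 after 12 h, against 23171 and 22339. Klf4 was at 5377 and 5464 after 2 days, against 3380 and 1915 in untreated cells. Replicates lay farthest apart in the untreated and 1 day groups, where the SD of log2 differences between replicates was 0.619 and 0.533, against 0.368 to 0.414 in the other groups. The 8 libraries of 2 to 12 h stood apart from the other 8: 424 genes were higher and 591 lower in every one of them, 7.60% of the genes tested, and none of the 9 G1 genes was among these. The labels name no batch, so a batch of those libraries cannot be told apart from early time in a comparison with untreated cells, and 4, 6 and 12 h were therefore also compared with 2 h. Ddx10 mRNA was at 997 and 1041 after 2 days of auxin, against 1433 and 1509 in untreated cells; the degron acts on the protein, so mRNA does not measure its loss.

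During auxin treatment the G1 genes moved in opposite directions. Ccnd1, Ccnd3, Cdk6 and Rbl1 fell, Rb1 and Rbl2 rose, Cdk4 fell at 12 h alone, and Cdkn1b did not change past the test. After withdrawal no member passed the test against untreated cells. A gene is called higher or lower where its adjusted p from limma (Benjamini-Hochberg over all genes tested, on the log2(value + 1) scale) is under 0.05; changes below are on that log2 scale, with the standard error (SE) of the fit.

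The number of members called grew with time, as did the number of genes called overall. At 2 h, limma called none of the 9, and none had an unadjusted p under 0.05, while 15.2% of all genes tested were called. At 4 h 1 member was called, with 19.1% of all genes. At 6 h 2 were called, with 24.4% of all genes, and at 12 h 5 were called, 2 higher and 3 lower, with 33.1% of all genes (14.8% higher, 18.3% lower). At 1 day 6 were called, 2 higher and 4 lower, with 33.6% of all genes (15.9% higher, 17.7% lower). At 2 days 6 were again called, 2 higher and 4 lower, with 44.8% of all genes (21.0% higher, 23.8% lower). Across the 6 times together, an F-test called 8 of the 9, Cdkn1b being the exception, with 65.2% of all genes. The median log2 change of the 9 was -0.27 at 12 h, -0.43 at 1 day and -0.10 at 2 days, against 0.02, -0.01 and -0.01 for all genes tested.

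**Figure D1:**
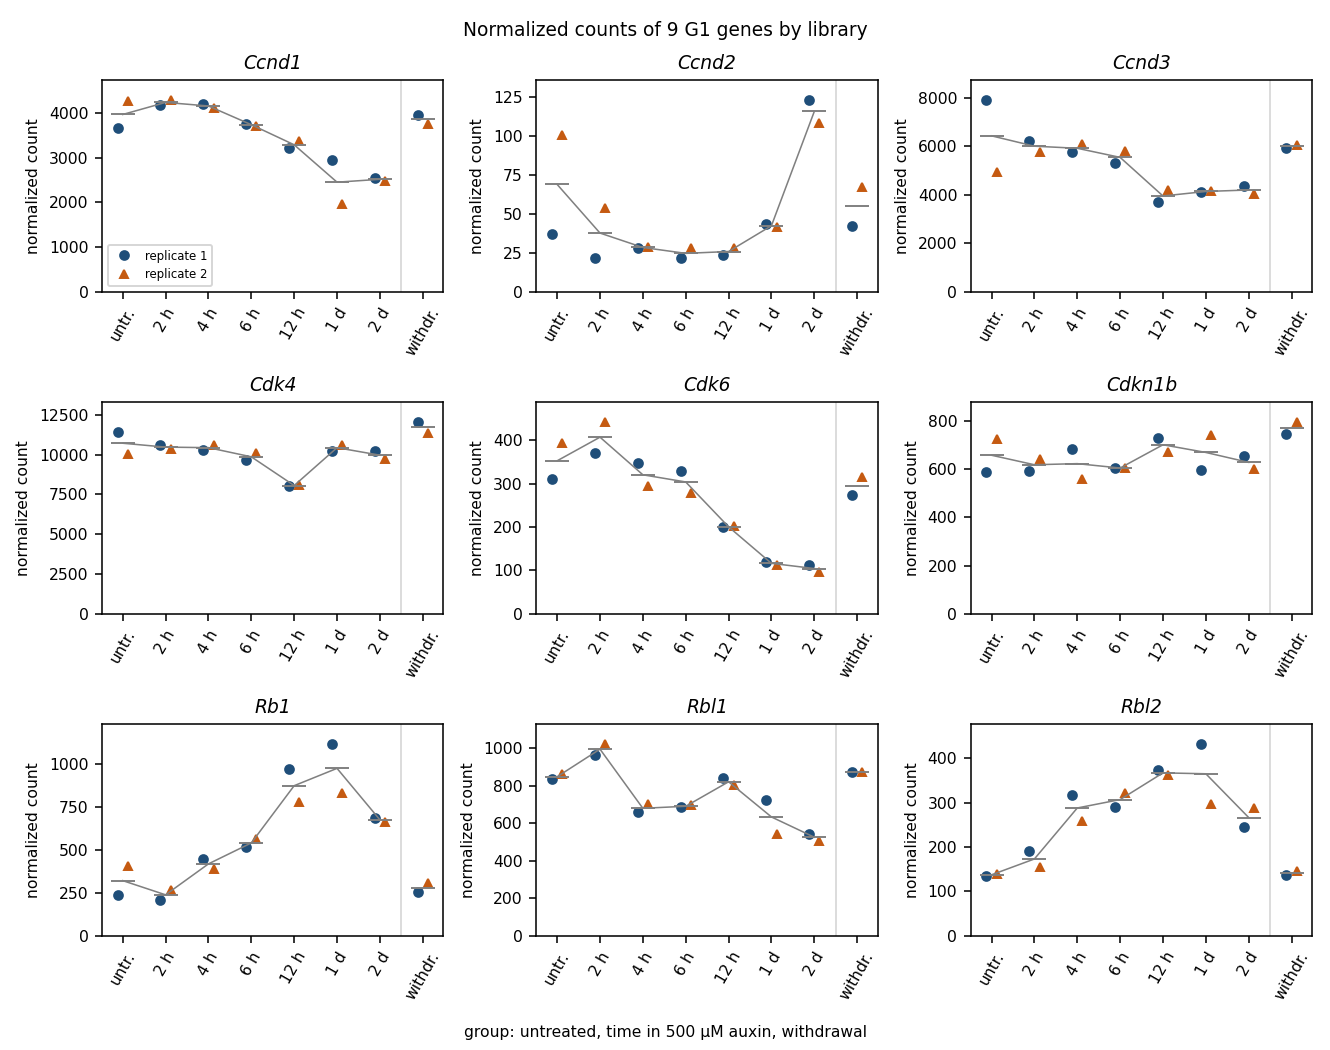
Normalized counts of the 9 G1 genes, 1 panel per gene with its own vertical axis from 0; circles are replicate 1, triangles replicate 2, horizontal bars the mean of the 2 libraries, and lines join the means in order of time. Cdk6 declines to 112 and 97.0 after 2 days and is back at 275 and 315 after withdrawal, while Rb1 and Rbl2 are highest at 12 h and 1 day.

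Levels of different genes were compared per kb of annotated exon, with each exon base of any annotated transcript counted once. This length can exceed that of the transcripts present, so the order below and the family shares depend on the annotation. Ccnd3 has 21 annotated transcripts over 8775 such bases, and Ccnd1 has 3 over 4709. Without division by length the mean normalized count was 5273 for Ccnd3 and 3522 for Ccnd1. Cdk4 was the most abundant member, with a mean over all libraries of 3142 normalized counts per kb. Ccnd1 and Ccnd3 followed at 748 and 601 per kb, and their ranges over the 16 libraries overlapped. Then came Cdkn1b at 145, Rbl1 at 126, Rb1 at 89.9, Rbl2 at 33.8, Cdk6 at 18.7 and Ccnd2 at 5.28 per kb, each overlapping in range with the one after it. The order had 2 gaps. The lowest Cdk4 library was at 2479 per kb and the highest value of any other member, that of Ccnd1, was 912, and the lowest Ccnd3 library was at 424 per kb and the highest Cdkn1b library at 175. The mean normalized count of Cdk4 was above that of 98.6% of all genes tested, that of Ccnd3 above 96.2% and that of Ccnd1 above 92.9%, whereas Cdk6 was above 41.6%, Rbl2 above 41.2% and Ccnd2 above 18.4%.

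Ccnd1 (ENSMUSG00000070348, chr7:144929931-144939925, minus strand, GRCm38) encodes cyclin D1, the D-type cyclin best known for linking growth factor signals to G1. Its normalized counts were 3650.2 and 4272 in untreated cells, 4165 and 4296 after 2 h, 4185 and 4117 after 4 h, 3754 and 3712 after 6 h, 3203 and 3365 after 12 h, 2944 and 1955 after 1 day, and 2542 and 2485 after 2 days. Through 6 h the libraries overlapped those of untreated cells, and from 12 h on every auxin library lay below both. The log2 change was -0.27 ± 0.13 at 12 h (limma adjusted p = 0.146), and Ccnd1 fell at 1 day (-0.72 ± 0.13, adjusted p = 0.00108) and at 2 days (-0.65 ± 0.13, adjusted p = 0.00146). Without the second library of 1 day, which was the lowest of all 16, the 1 day change was -0.42 with an adjusted p of 0.00229, and with the compared groups fitted alone the 1 day call was lost (adjusted p = 0.0638). Of the exon bases of Ccnd1, 23.4% also lie in exons of Oraov1 on the other strand, and whether reads were counted by strand is not given in the sources used here. In bulk RNA such as this, fewer cells in a given state and less RNA per cell cannot be told apart.

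Ccnd3 (ENSMUSG00000034165, chr17:47505051-47599691, plus strand) encodes cyclin D3. Its normalized counts were 7927 and 4932 in untreated cells, 6237 and 5769 after 2 h, 5754 and 6080.1 after 4 h, 5294 and 5789.6 after 6 h, 3723 and 4178 after 12 h, 4125 and 4149 after 1 day, and 4347 and 4049.7 after 2 days. The untreated pair spanned the values of 2, 4 and 6 h, and all 6 libraries from 12 h on lay below it. Ccnd3 fell at 12 h (-0.66 ± 0.15, limma adjusted p = 0.00398), at 1 day (-0.60 ± 0.15, adjusted p = 0.00786) and at 2 days (-0.58 ± 0.15, adjusted p = 0.0069). The size of these changes rested on the 2 untreated libraries, which were far apart. Without the first untreated library the log2 changes were -0.32, -0.25 and -0.23 at 12 h, 1 day and 2 days, and without the second they were -1.01, -0.94 and -0.92, all still called. Without the second library of 2 days the 2 day call was lost (-0.52, adjusted p = 0.0516). Fitted on the compared groups alone, none of the 3 passed (adjusted p = 0.061, 0.12 and 0.0883). Of the exon bases of Ccnd3, 4.11% are shared with Bysl on the other strand. Ccnd2 shares 3.91% and 3.95% and Cdk6 2.63% of theirs with other genes on the opposite strand.

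Ccnd2 (ENSMUSG00000000184, chr6:127125162-127152193, minus strand) encodes cyclin D2 and was the lowest of the members. It had 37.2 and 100.4 normalized counts in untreated cells, 21.8 and 53.5 after 2 h, 28.2 and 28.6 after 4 h, 21.5 and 27.8 after 6 h, 23.5 and 28.1 after 12 h, 43.2 and 41.5 after 1 day, and 123 and 108 after 2 days. Both libraries at 4, 6 and 12 h lay below the untreated pair and both at 2 days lay above it, but the untreated libraries differed from each other more than 2-fold. No comparison with untreated cells passed the test; the nearest was 6 h (-1.29 ± 0.45, limma adjusted p = 0.052), followed by 12 h (-1.22 ± 0.45, adjusted p = 0.0522). The value at 2 days was 0.90 ± 0.45 (adjusted p = 0.12). Without the first untreated library, 2, 4, 6 and 12 h were all called lower, at -1.53, -1.79, -1.99 and -1.92, and without the second 2 days was called higher, at 1.61. An F-test over all 6 times against untreated cells together did pass (limma adjusted p = 0.00634), and in a comparison chosen after the data were seen Ccnd2 was higher at 2 days than at 2 h (1.72 ± 0.45, adjusted p = 0.00585, where 51.7% of all genes were called).

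Cdk4 (ENSMUSG00000006728, chr10:127063534-127067920, plus strand) and Cdk6 (ENSMUSG00000040274, chr5:3341485-3531008, plus strand) encode the kinases that D-type cyclins activate, and their mRNAs took different courses. The 150 bases before the RefSeq start of each are shown because the capitals mark a letter match, CACGTG, the E-box bound by MYC and its relatives, that is repeated before Cdk4 (RefSeq, GRCm38.p6, Cdk4 chr10:127063385-127063534 and Cdk6 chr5:3343743-3343892, both plus strand).
Cdk4: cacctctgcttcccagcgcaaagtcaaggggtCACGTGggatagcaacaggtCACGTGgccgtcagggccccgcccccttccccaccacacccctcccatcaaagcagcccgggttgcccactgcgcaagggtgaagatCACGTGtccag
Cdk6: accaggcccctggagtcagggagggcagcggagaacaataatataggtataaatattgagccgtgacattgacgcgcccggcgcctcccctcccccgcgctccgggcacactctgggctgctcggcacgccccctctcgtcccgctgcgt
In the 250 bases before the start, both strands searched, Cdk4 held CACGTG at 4 places, starting 172, 118, 98 and 11 bases before it, and Cdk6 held it once, 220 bases before its start and outside the stretch printed. Of 32851 windows of this length in the same table, 6.02% held at least 1 such match. A match describes letters and shows no binding.

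Cdk4 had 11419 and 10017 normalized counts in untreated cells, 10605 and 10343 after 2 h, 10302 and 10578 after 4 h, 9654 and 10073 after 6 h, 8053 and 8067 after 12 h, 10260.3 and 10615 after 1 day, and 10199 and 9733 after 2 days. The 2 libraries of 12 h were the lowest of all 16, and those of 1 and 2 days lay within the untreated range except the second of 2 days, just below it. Cdk4 fell at 12 h (-0.41 ± 0.07, limma adjusted p = 0.000384). At 1 day the change was -0.04 with a 95% interval of -0.18 to 0.11, and at 2 days -0.10 with an interval of -0.25 to 0.04, neither past the test. Without the second untreated library Cdk4 was also called lower at 6 h (-0.21, adjusted p = 0.0311) and at 2 days (-0.20, adjusted p = 0.0285). Of the exon bases of Cdk4, 19.7% are shared with Tspan31 on the other strand.

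Cdk6 had 310.4 and 394 normalized counts in untreated cells, 371 and 443 after 2 h, 347 and 293 after 4 h, 328 and 279 after 6 h, 199 and 201 after 12 h, 119.8 and 113 after 1 day, and 112 and 97.0 after 2 days. From 12 h on all 6 libraries lay below every earlier one, and those of 1 and 2 days lay below those of 12 h. Cdk6 fell at 12 h (-0.80 ± 0.16, limma adjusted p = 0.00184), at 1 day (-1.58 ± 0.16, adjusted p = 7.6e-06) and at 2 days (-1.74 ± 0.16, adjusted p = 1.88e-06). Its mean level was 104 ± 10.4 after 2 days of auxin and 352 ± 59.1 in untreated cells (SD, n = 2 each). These 3 calls held when any 1 library of the 2 compared groups was left out. Since Cdk4 was far more abundant, the share of Cdk6 in the summed kinase mRNA per kb was small throughout, at 0.242% ± 0.016 after 2 days of auxin and 0.766% ± 0.197 in untreated cells (SD, n = 2 each).

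Cdkn1b (ENSMUSG00000003031, chr6:134920401-134925513, plus strand) was the member that moved least. Its normalized counts were 589 and 725 in untreated cells, and the lowest and highest of the 12 auxin libraries were 559.8 at 4 h and 741 at 1 day. Every time under auxin overlapped the untreated pair. The F-test over the 6 times gave a limma adjusted p of 0.727, and the change at 2 days was -0.06 with a 95% interval of -0.35 to 0.23, so at this spread between libraries a change of up to about that size was not detectable.

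**Figure D2:**
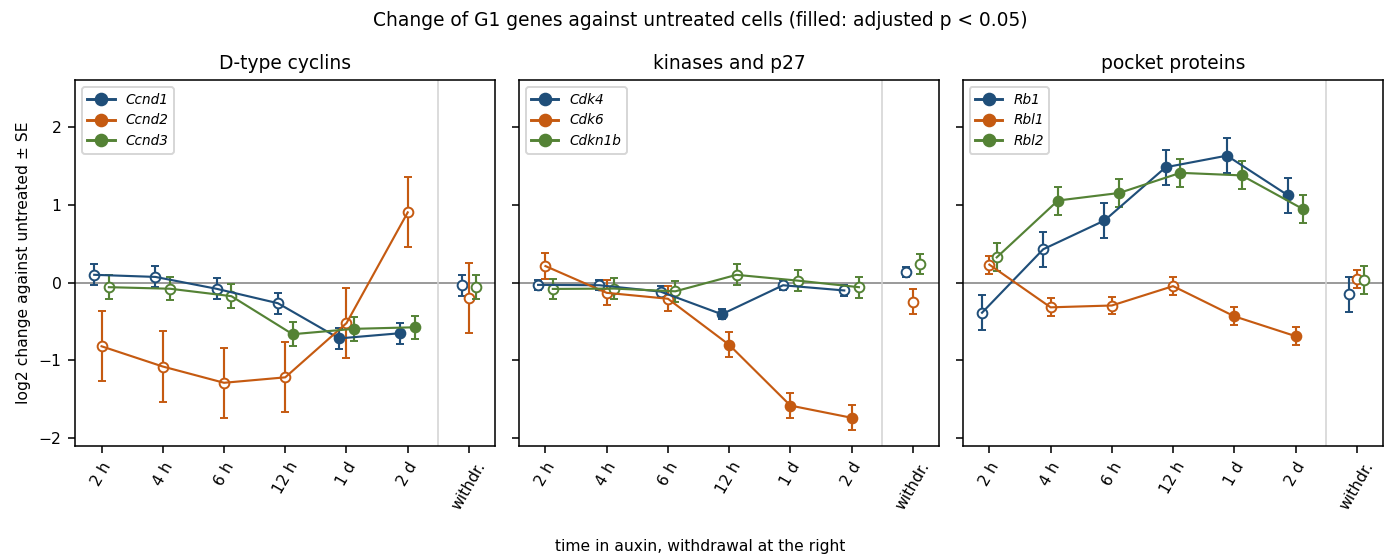
Log2 change of each member against untreated cells (points, with SE as bars) by time in auxin, and after withdrawal at the right of each panel; filled points have a limma adjusted p under 0.05. In the right panel Rb1 and Rbl2 lie above 0 from 4 h to 2 days while Rbl1 ends at -0.69, and all points return close to 0 after withdrawal.

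The pocket protein genes divided: Rb1 and Rbl2 rose under auxin and Rbl1 fell. Rbl2 was the first member called, at 4 h, Rb1 followed at 6 h, and Rbl1 was called at 1 day; whether these times differ between genes was not tested. The 150 bases before the RefSeq start of Rbl1 (chr2:157204535-157204684, minus strand, GRCm38.p6) and of Rbl2 (chr8:91069907-91070056, plus strand) are set side by side because these genes moved in opposite directions and capitals mark an E2F letter match present before 1 of them.
Rbl1: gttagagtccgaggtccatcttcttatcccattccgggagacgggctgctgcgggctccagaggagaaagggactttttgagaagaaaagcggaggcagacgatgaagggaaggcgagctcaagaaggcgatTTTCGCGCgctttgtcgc
Rbl2: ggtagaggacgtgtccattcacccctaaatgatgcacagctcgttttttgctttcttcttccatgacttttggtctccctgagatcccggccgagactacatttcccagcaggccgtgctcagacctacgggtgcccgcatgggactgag
Rbl1 held TTTCGCGC from 18 to 11 bases before its start, and no other member window held an E2F match (TTTCGCGC, TTTGGCGC or TTTCCCGC, either strand). Such matches occurred in 1.53% of the 32851 windows. The Rbl2 window held none of these and no E-box. It also held no FOXO motif (GTAAACA, in 3.17% of windows) and no CCAAT box (in 33.8% of windows), which says only that those letters are not in its 250 bases. RefSeq windows were matched for 6 of the 9 members: Ccnd3, Cdk4, Cdk6, Cdkn1b, Rbl1 and Rbl2.

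Rb1 (ENSMUSG00000022105, chr14:73183673-73325822, minus strand) encodes RB, the retinoblastoma protein. It had 238 and 405 normalized counts in untreated cells, 209 and 269 after 2 h, 447 and 391 after 4 h, 517 and 564 after 6 h, 969 and 779.6 after 12 h, 1119.8 and 830.4 after 1 day, and 687 and 665 after 2 days. All 8 libraries from 6 h to 2 days lay above both untreated libraries. Rb1 rose at 6 h (0.80 ± 0.22, limma adjusted p = 0.0194), at 12 h (1.48 ± 0.22, adjusted p = 2e-04), at 1 day (1.63 ± 0.22, adjusted p = 8.8e-05) and at 2 days (1.12 ± 0.22, adjusted p = 0.00109). The untreated libraries differed, and without the first of them the 6 h change was 0.41 with an adjusted p of 0.179 and the 2 day change 0.74 with an adjusted p of 0.0121; the 6 h call was also lost without either 6 h library (adjusted p = 0.0685 and 0.11). Of the exon bases of Rb1, 8.11% are shared with Rcbtb2 and 6.78% with Lpar6, both on the other strand.

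Rbl2 (ENSMUSG00000031666, chr8:91070057-91123844, plus strand) encodes p130. It had 136 and 139 normalized counts in untreated cells, 191 and 155 after 2 h, 317 and 259 after 4 h, 291 and 323 after 6 h, 373 and 361 after 12 h, 433 and 297 after 1 day, and 245 and 288 after 2 days. Every auxin library was above both untreated libraries. Rbl2 rose at 4 h (1.05 ± 0.18, limma adjusted p = 0.00161), 6 h (1.15 ± 0.18, adjusted p = 0.000567), 12 h (1.41 ± 0.18, adjusted p = 5.36e-05), 1 day (1.38 ± 0.18, adjusted p = 6.23e-05) and 2 days (0.94 ± 0.18, adjusted p = 0.000807). All 5 calls held when any 1 library of the 2 compared groups was left out. Of the exon bases of Rbl2, 9.17% are shared with Aktip and 11.8% with ENSMUSG00000109727, both on the other strand. The second of these is not among the genes of the deposited counts.

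Rbl1 (ENSMUSG00000027641, chr2:157145893-157204534, minus strand) encodes p107. It had 834 and 861 normalized counts in untreated cells, 964 and 1024 after 2 h, 657 and 701 after 4 h, 685 and 696 after 6 h, 838 and 803 after 12 h, 724 and 542 after 1 day, and 543 and 507 after 2 days. The 2 h pair lay above the untreated pair, the pairs of 4 and 6 h below it, the 12 h pair across it, and the pairs of 1 and 2 days below it. Against untreated cells the values at 2, 4, 6 and 12 h were 0.23, -0.32, -0.30 and -0.05 ± 0.11, with limma adjusted p between 0.0672 and 0.793. Rbl1 fell at 1 day (-0.43 ± 0.11, adjusted p = 0.00995) and at 2 days (-0.69 ± 0.11, adjusted p = 0.000277). Without the second library of 1 day, the 1 day value was -0.23 with an adjusted p of 0.0874, and with the compared groups fitted alone the call was lost as well (adjusted p = 0.196).

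Set against 2 h, within the libraries of 2 to 12 h, Rb1 and Rbl2 rose and Ccnd3, Cdk4 and Cdk6 fell by 12 h. Rbl1 was lower at 4 and 6 h, but at 12 h its change did not pass (-0.28 ± 0.11, limma adjusted p = 0.097). At 4 h 1 of the 9 was called, Rbl1, lower than at 2 h (-0.55 ± 0.11, limma adjusted p = 0.0216), with 2.45% of all genes called. At 6 h 3 were called, with 7.80% of all genes: Rb1 was higher (1.19 ± 0.22, adjusted p = 0.00521), Rbl2 was higher (0.83 ± 0.18, adjusted p = 0.013) and Rbl1 was lower (-0.53 ± 0.11, adjusted p = 0.013). At 12 h 5 were called, with 24.6% of all genes. Rb1 was higher there (1.87 ± 0.22, adjusted p = 5.96e-05), as was Rbl2 (1.09 ± 0.18, adjusted p = 0.000731). Cdk6 was lower at 12 h than at 2 h (-1.01 ± 0.16, adjusted p = 0.00056), as were Ccnd3 (-0.60 ± 0.15, adjusted p = 0.0102) and Cdk4 (-0.38 ± 0.07, adjusted p = 0.00112). With 1 library of the 2 compared groups left out, the Rbl1 change ran from -0.60 to -0.50 at 4 h and from -0.57 to -0.48 at 6 h. At 6 h Rb1 ran from 1.00 to 1.37 and Rbl2 from 0.68 to 0.98. The 4 h call was lost in all of these fits and each 6 h call in some or all of them. Such fits leave 1 library in a group, so a lost call does not by itself show that the change rests on 1 library. At 12 h the Ccnd3 call was lost without the first 2 h library (adjusted p = 0.0772) and without the first 12 h library (adjusted p = 0.0877).

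Neighbouring times were also compared, a choice made after the data were seen. From 4 to 6 h limma called none of the 9, none had an unadjusted p under 0.05, and 0.0374% of all genes were called. From 6 to 12 h 2 were called, Cdk4 and Cdk6, both lower, with 6.48% of all genes. From 12 h to 1 day 4 were called, with 30.4% of all genes: Ccnd1, Cdk6 and Rbl1 were lower and Cdk4 was higher. From 1 to 2 days limma called none, 4 had an unadjusted p under 0.05 (Ccnd2, Rb1, Rbl1 and Rbl2), and 5.65% of all genes were called. Over the longer span, 6 members were called at 1 day against 2 h, with 44.7% of all genes: Rb1 and Rbl2 were higher and Ccnd1, Ccnd3, Cdk6 and Rbl1 lower. Both calls from 6 to 12 h were lost when any 1 library of the 2 compared groups was left out. The changes then ran from -0.32 to -0.26 for Cdk4 and from -0.71 to -0.47 for Cdk6. Without the second library of 1 day, the steps of Ccnd1 and Rbl1 from 12 h to 1 day were -0.16 and -0.18, and their calls were lost. Comparisons of 1 or 2 days with 2 or 12 h cross from the libraries that stood apart to the others, so a batch cannot be told apart from time in them.

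These opposite courses met in the makeup of the pocket protein family, given here as values with no test, since 2 libraries stand against 2. Per kb of exon, Rb1 made up 47.7% ± 0.503 of the family's summed mRNA after 2 days of auxin and 24.7% ± 6.53 in untreated cells (SD, n = 2 each). Rbl1 made up 37.3% ± 1.36 after 2 days and 66.7% ± 5.75 in untreated cells, and Rbl2 made up 15.0% ± 1.86 after 2 days and 8.58% ± 0.779 in untreated cells. In every library from 12 h to 2 days except the second of 12 h, Rb1 was the largest of the 3, and in every library before 12 h Rbl1 was. The summed level of the family was 311 to 350.3 per kb at 12 h and 233 to 237 at 2 days, against 197 to 229 in untreated cells. Thus the sum at 2 days lay just above the untreated range while its composition lay outside it.

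The summed level of the D-type cyclin genes lay within the untreated range at 2 and 4 h and below it from 6 h to 2 days. The sum per kb was 1547 to 1598 at 2 and 4 h, 1403 to 1451 at 6 h and 1001 to 1048 after 2 days of auxin, against 1480 to 1682 in untreated cells. Ccnd1 made up 52.1% ± 0.875 and Ccnd3 46.7% ± 0.802 of the sum after 2 days, against 53.7% ± 10.8 and 45.8% ± 11.1 in untreated cells, so the shares overlapped. Ccnd2 made up 1.20% ± 0.0728 after 2 days and 0.478% ± 0.344 in untreated cells.

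**Figure D3:**
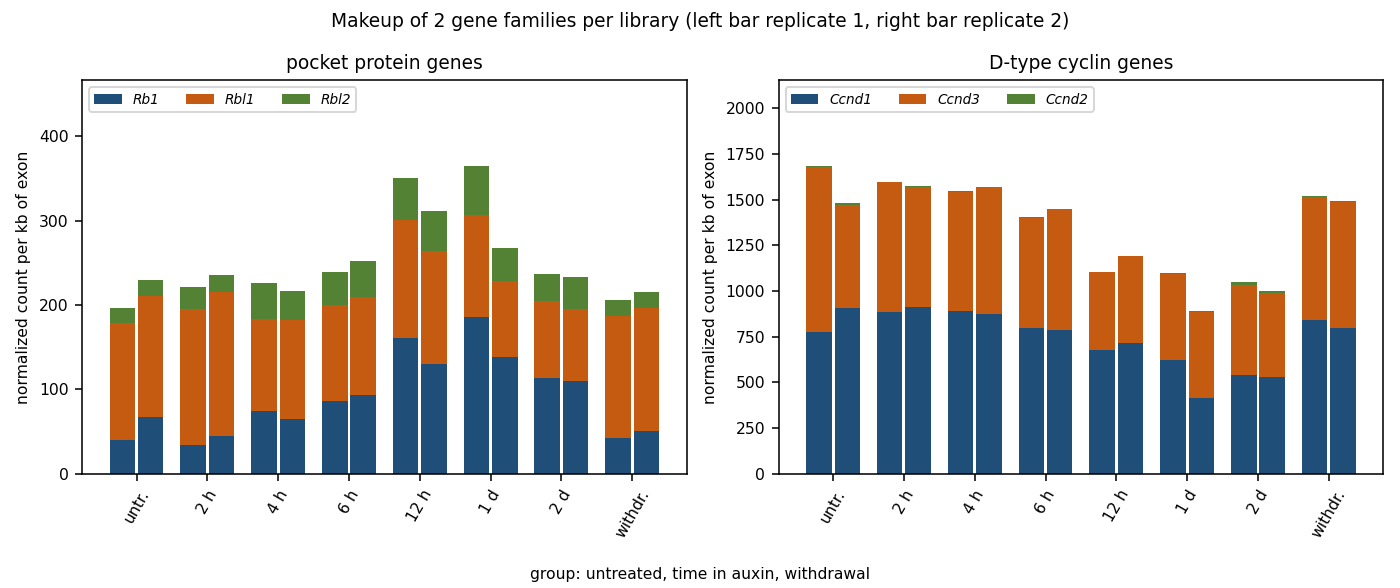
Normalized counts per kb of exon of the pocket protein genes (left) and the D-type cyclin genes (right), stacked per library, with replicate 1 and replicate 2 side by side in each group. Rb1 makes up 51.1% and 51.5% of the pocket protein sum at 1 day, against 20.1% and 29.4% in untreated cells, while the D-type cyclin sum is 1001 to 1048 after 2 days, against 1480 to 1682 in untreated cells.

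After 2 days without auxin, none of the 9 genes differed from untreated cells past the test, though the intervals of some were wide. In the withdrawal group Ccnd1 had 3954 and 3753 normalized counts, Ccnd2 42.4 and 66.9, and Ccnd3 5947 and 6059.7. Cdk4 had 12082 and 11358, Cdk6 275 and 315, and Cdkn1b 746 and 797. Rb1 had 252 and 309, Rbl1 872 and 871, and Rbl2 137 and 145. Cdkn1b and Rbl1 lay above both of their untreated libraries, and the other 7 overlapped the untreated range. How many of all genes lay outside that range was not computed. Limma called none of the 9 against untreated cells, none had an unadjusted p under 0.05, and 2.79% of all genes were called. The largest differences were those of Cdk6 (-0.25, 95% interval -0.60 to 0.10) and Cdkn1b (0.24, interval -0.05 to 0.53). The intervals of Ccnd2 (-1.165 to 0.774) and Rb1 (-0.63 to 0.33) were wider, so sizeable differences of these 2 were not excluded. Leaving out the first untreated library, Cdk4 was called higher (0.23, adjusted p = 0.0493), and leaving out the second, Ccnd3 was called lower (-0.40, adjusted p = 0.0315).

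Against 2 days of auxin, 7 of the 9 changed after withdrawal, 5 higher and 2 lower, with 41.3% of all genes called (22.2% higher, 19.1% lower). Cdk6 rose (1.49 ± 0.16, limma adjusted p = 8.37e-06), as did Rbl1 (0.73 ± 0.11, adjusted p = 2e-04), Ccnd1 (0.62 ± 0.13, adjusted p = 0.0025), Ccnd3 (0.52 ± 0.15, adjusted p = 0.0142) and Cdk4 (0.23 ± 0.07, adjusted p = 0.0124). Rb1 fell by 1.27 ± 0.22 (adjusted p = 0.000479) and Rbl2 fell by 0.91 ± 0.18 (adjusted p = 0.00123). The 2 libraries of one group and the 2 of the other did not overlap for any of the 9. The share of all genes without overlap was not computed, so this does not set the 9 apart. The calls of Ccnd3 and Cdk4 were lost in 3 and 2 of the 4 fits with 1 library left out, and the other 5 were kept in all 4. Expressed as the part of the 2 day change that was undone, withdrawal returned 85.7% of the log2 change of Cdk6, 89.8% of Ccnd3, 94.5% of Ccnd1, 96.1% of Rbl2, 106% of Rbl1 and 114% of Rb1. Single untreated libraries moved these shares: that of Ccnd3 was 222% without the first and 56.3% without the second, and that of Rb1 173% without the first and 84.7% without the second. With any 1 library left out, the shares of the other 4 lay between 78.0% and 114%.

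Markers of other cell states moved over the same samples. The summed level of 4 genes of the 2-cell-like state was 1688 to 1947 after 2 days of auxin, against 179 to 417 in untreated cells, and 698 to 747 after withdrawal. Of these genes 3 were tested, and all 3 were called higher at 2 days, where 21.0% of all genes were called higher and 23.8% lower. Neural markers, 4 of 4 in the table, summed to 823 to 833 after 2 days against 247 to 395 in untreated cells, with 2 of 3 tested called higher and none lower. Trophoblast markers, 4 of 5, summed to 1997 to 2124 after 2 days against 1204 to 1301 in untreated cells, but they did not move together. Tfap2c was called higher, with a mean of 1711 after 2 days and 675 in untreated cells, and Eomes lower, at 233 and 374 in the same groups, while Cdx2 and Gata3 had negative changes that did not pass; the median log2 change of the 4 was -0.42. Primitive endoderm markers, 6 of 7, summed to 152 to 166 after 2 days against 80.2 to 81.1 in untreated cells, with 2 of 4 tested called higher. Mesoderm markers, 3 of 4 and Eomes again among them, summed to 237 to 279.8 after 2 days against 319.6 to 522 in untreated cells, with Eomes alone called, lower. Of the fibroblast list, 2 of 6 genes were in the table, with sums of 67.4 to 97.6 after 2 days and 107 to 108 in untreated cells. These 2 did not move together. Thy1 was at 23.2 and 16.8 after 2 days against 51.0 and 83.5 in untreated cells, and Col1a1 at 74.4 and 50.7 against 57.0 and 23.3. The part of these cell states in the changes of the G1 genes was not tested.

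Among the members themselves, the courses of Ccnd1 and Cdk6 were most alike over the 16 libraries (Pearson r = 0.93, log2 scale), followed by Rb1 and Rbl2 (r = 0.85). Ccnd3 and Rb1 ran most opposite (r = -0.88). The libraries share 8 groups, so these are descriptions of common time courses. Of all other tested genes, those with the course most like that of Cdk6 were Adam23 (r = 0.99), Aldh9a1 (r = 0.98) and Polr3g (r = 0.98). Those most like Ccnd1 were Ipo7, Ddx21 and Iqgap2 (r = 0.97 to 0.98), and those most like Ccnd3 were Tubb2b, Tmem97 and Lrrc59 (r = 0.95 to 0.96). For Cdk4 they were Apex1, Llph and Wibg (r = 0.93 to 0.95). For Rb1 they were Ptk7, Rab21 and Mapkapk3 (r = 0.95 to 0.97), for Rbl2 Csnk1g1, Zfp365 and Ercc5 (r = 0.96 to 0.97), and for Rbl1 Sephs2, Orc3 and Fbxo5 (r = 0.93 to 0.96). Ccnd2 and Cdkn1b had looser neighbours: Atp6v1a, Stk39 and Galnt7 reached r = 0.84 to 0.86 with Ccnd2, and Mxi1, Myo1a and Hsd17b11 reached r = 0.80 to 0.84 with Cdkn1b.

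Around the members, 34 other genes of G1 control were tested: E cyclins and CDK2, other CDK inhibitors, E2F and DP factors, MuvB partners of the pocket proteins, the CDK-activating kinase, and genes of degradation and CDK activation. Of the 34, 4 were called higher and 11 lower at 12 h, with 14.8% of all genes called higher and 18.3% lower. At 1 day 4 were higher and 13 lower, with 15.9% and 17.7% of all genes. At 2 days 7 were higher and 16 lower, with 21.0% and 23.8% of all genes. The median log2 change of the 34 at 2 days was -0.26, against -0.01 for all genes tested. After withdrawal none was higher and 1 lower than in untreated cells, with 2.79% of all genes called. Against 2 days of auxin, 16 were higher and 4 lower after withdrawal, with 22.2% and 19.1% of all genes.

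The CDK inhibitors other than p27 differed among themselves, with 2 of 6 called higher at 2 days and none lower. Of all genes, 21.0% were called higher and 23.8% lower at that time. Cdkn1a, which encodes p21 and is a target of p53, had 1523 and 1537 normalized counts in untreated cells, 2735 and 2728 after 4 h, 3777 and 3969.9 after 12 h, 5165 and 5747 after 1 day, and 5492 and 5486 after 2 days. It rose by 0.84 ± 0.08 at 4 h (limma adjusted p = 2.74e-05) and by 1.84 ± 0.08 at 2 days (adjusted p = 4.63e-09), and after withdrawal it was at 1365 and 1504. Cdkn2b, which encodes p15, an inhibitor of CDK4 and CDK6, had 149 and 148 after 12 h, 285 and 288 after 1 day, and 279 and 251 after 2 days, against 79.7 and 53.1 in untreated cells. Its log2 change was 2.12 ± 0.21 at 1 day (adjusted p = 5.88e-06) and 2.01 ± 0.21 at 2 days (adjusted p = 5.37e-06). Cdkn1c, Cdkn2a, Cdkn2c and Cdkn2d had changes of -0.14 to -0.05 at 2 days, none past the test.

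E cyclins, which act with CDK2 after the D-type cyclins, fell. Ccne1 had 1231 and 1133 normalized counts after 2 days of auxin, against 4139.8 and 3734 in untreated cells (-1.73 ± 0.09, limma adjusted p = 1.34e-08). Ccne2 had 155 and 59.2 after 2 days, against 392 and 522 in untreated cells (-2.23 ± 0.33, adjusted p = 1e-04). Cdk2 changed by -0.16 ± 0.07 at 2 days, which did not pass (adjusted p = 0.0932). Ccne1 was the 1 gene of the 34 still called after withdrawal, at 3029 and 2988 against 4139.8 and 3734 in untreated cells (-0.39 ± 0.09, adjusted p = 0.0313), a call that was lost in 3 of 4 fits with 1 library left out.

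Of the 10 E2F and DP genes, 1 was higher and 6 lower at 2 days, where 21.0% of all genes were called higher and 23.8% lower. E2f2, an activating E2F, had 172 and 175 normalized counts after 2 days of auxin, against 457 and 558 in untreated cells (-1.54 ± 0.16, limma adjusted p = 5.79e-06). E2f2 was also lower at 12 h (-0.89 ± 0.16, adjusted p = 0.000903) and at 1 day (-1.65 ± 0.16, adjusted p = 5.61e-06). It was already lower at 2 h (-0.99 ± 0.16, adjusted p = 0.00182), the first of the libraries that stood apart, and 12 h against 2 h was 0.10 ± 0.16 (adjusted p = 0.716). Of the 5 MuvB genes, whose products form the DREAM complex with p130 or p107, 1 was higher and 1 lower at 2 days. Of the 3 genes of the CDK-activating kinase, 1 was higher and 2 lower. Of the 7 genes of degradation and CDK activation, 2 were higher and 5 lower. Fbxw7, an F-box gene whose product targets cyclin E, had 1202 and 1166 normalized counts at 12 h, against 725 and 663 in untreated cells (0.77 ± 0.11, adjusted p = 0.000154).

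**Figure D4:**
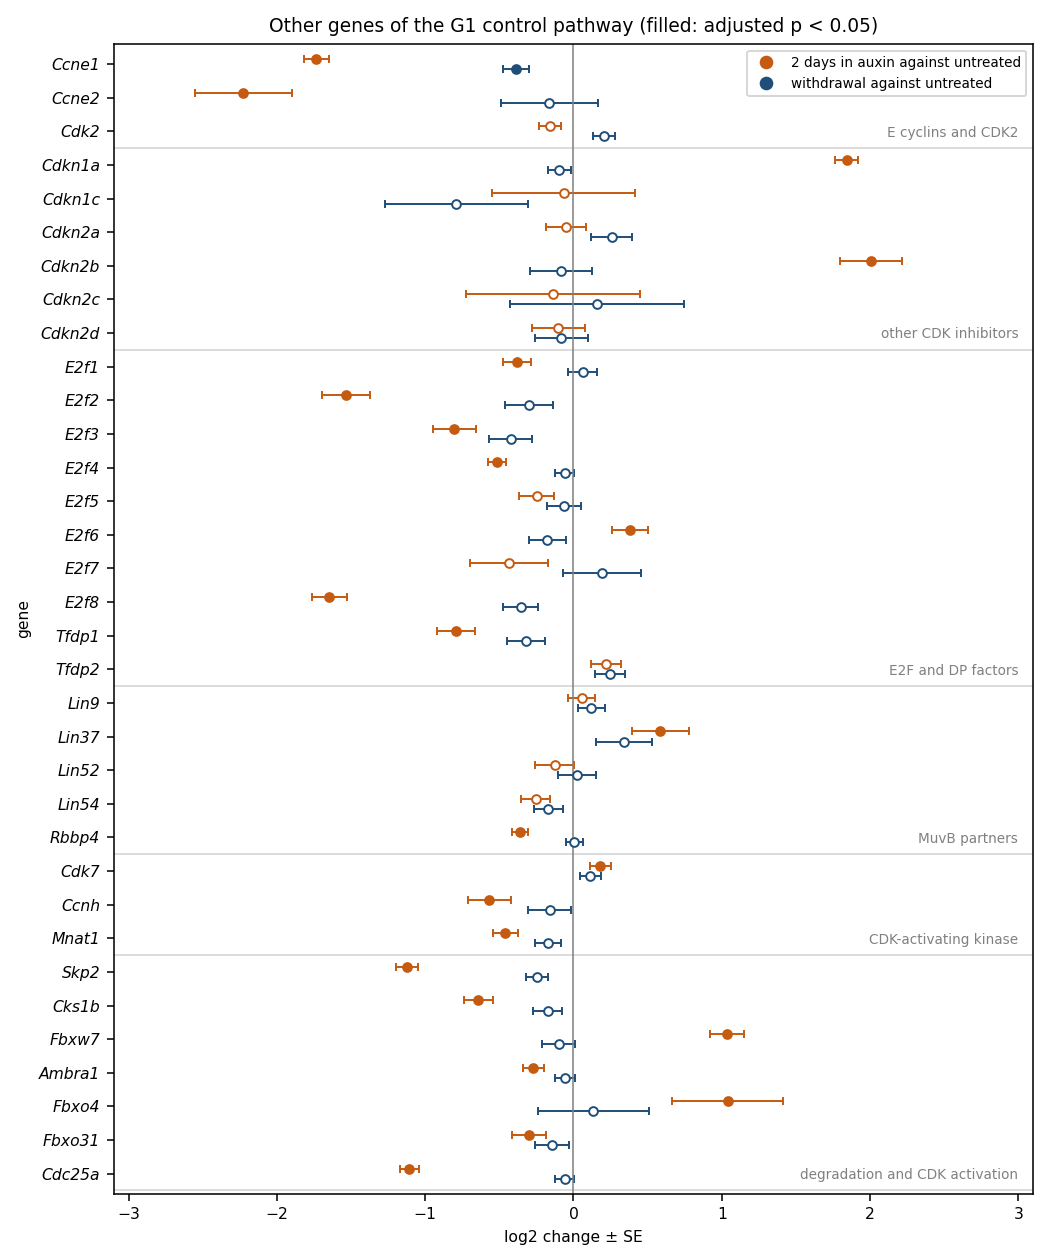
Log2 change (points, with SE as bars) of 34 other G1 control genes after 2 days of auxin (orange) and after withdrawal (blue), each against untreated cells; filled points have a limma adjusted p under 0.05. At 2 days 23 of the 34 are called, with 44.8% of all genes. Ccne2 at -2.23 and Cdkn2b at 2.01 lie at the ends. After withdrawal Ccne1 alone is called, at -0.39, with 2.79% of all genes.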

How the data were processed

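RNA sequencing libraries of 16 samples in 8 groups of 2 were analysed; groups, times, doses and replicate numbers came from the labels. The deposited table holds a signal, normalized read counts: from the table's name and its non-whole values, the authors divided gene counts by a factor per library. Per the submitters' processing notes, Trim Galore, STAR, RSEM and DESeq2 were used with mm10; not given in the sources used here are their versions, roles and strand setting. Of low values of the 1884 genes with 1 annotated transcript, 72.5% to 99.1% in a library were whole multiples of the value of 1 read (to within 0.1, up to 20 multiples), against 35.7% to 44.7% for other genes, so whole reads could not be recovered for all genes and no count model was used. A read was worth 0.890 to 1.24.

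Values were analysed as log2(value + 1), which understates changes of low genes. Genes with a mean of at least 10 entered 1 limma 3.58.1 model (R 4.3.3) with a mean per group, intensity trend and 8 residual degrees of freedom; the median SE of a log2 change was 0.158. P-values were adjusted by Benjamini-Hochberg over all 13355 genes in each comparison. The fitting code was tested on simulated data with the same spread per gene in all groups and changes added at 2 days. Of 135 calls at 2 days against untreated, 14 were false. Of added log2 changes of size 0.5, 1 and 2, 22.4%, 70.1% and 89.4% were called. Changes were added to 67, 67 and 66 of 13355 genes, whereas 44.8% of genes were called in the real comparison. The adjusted threshold is stricter where few genes change, so these rates do not carry over to the real data. The wider spread of the real untreated and 1 day groups was not simulated. Positions and exon lengths are from GENCODE M21 (GRCm38, the assembly of mm10), in which 85 gene identifiers were not found; promoter sequences are from RefSeq (GRCm38.p6).

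The members, the other G1 lists and the markers were chosen with earlier results of these data known, and named genes followed a rule: all members, Cdkn1a, the 4 called genes of the other G1 lists with the largest changes at 12 h, 1 day, 2 days and withdrawal, and the 3 genes most correlated with each member. Alternatives were other pseudocounts, filters and scalings, a replicate block, the compared groups alone, and leaving out each library. For a comparison of 2 groups, only the libraries of those groups were left out in turn.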

Additional observations from a re-analysis of the deposited data

Results flagged for a closer look

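Steps between neighbouring times singled out 7 places where the change against untreated cells at 1 time differed from that at the time before (limma, adjusted over all genes tested). The steps from 6 to 12 h and from 12 h to 1 day were chosen after the data were seen. Rbl1 was lower at 4 h than at 2 h by a log2 difference of -0.55 (adjusted p = 0.0216), its change against untreated cells being -0.32 at 4 h and 0.23 at 2 h. Between 6 and 12 h, 6.48% of all genes were called, and Cdk4 was lower at 12 h by -0.29 (adjusted p = 0.0217) and Cdk6 by -0.59 (adjusted p = 0.045). These 3 differences lost their call when any 1 library of the 2 compared groups was left out, and none changed sign.

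Between 12 h and 1 day, 30.4% of all genes were called. Cdk4 was higher at 1 day than at 12 h by 0.37 (adjusted p = 0.00142), while Cdk6 was lower by -0.78 (adjusted p = 0.00333). Both calls held with any 1 library of these 2 groups left out. Ccnd1 was lower at 1 day than at 12 h by -0.45 (adjusted p = 0.0225) and Rbl1 by -0.39 (adjusted p = 0.0215). Without the second library of 1 day these were -0.16 and -0.18, with adjusted p of 0.207 and 0.196, and each was lost in 3 of 4 such fits. This step crosses from the libraries of 2 to 12 h to the others, so a batch and time cannot be told apart in it.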

How the results depend on the processing

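Of the 57 changes called as reported (members, steps between times and other named G1 genes), all kept their call and direction with a pseudocount of 0.5 or 5, without a filter and with a mean of at least 50, and 56 did so under trimmed means of M values, upper quartiles and the replicate block. With the compared groups fitted alone 48 kept it, and of 228 fits with 1 library left out 186 did. At 4 h against 2 h, 2 members were called in place of 1 with a mean of at least 50, trimmed means of M values and upper quartiles, Rbl2 being added, and 3 with the groups alone. At 6 h against untreated cells 1 was called with the groups alone in place of 2, and at 1 day 3 in place of 6. With 1 library left out, members called against untreated cells ranged from 0 to 2 at 2 h, 1 to 3 at 4 h, 1 to 4 at 6 h, and 0 to 1 after withdrawal; against 2 h they were 0 in every such fit at 4 h and 0 to 1 at 6 h.

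Replicate numbers do not pair these samples: the 28 correlations of deviations between groups ran from -0.0614 to 0.0664. In the fit with a replicate block Ccnd2 was called at 6 h (-1.29, adjusted p = 0.0311), 12 h (-1.22, adjusted p = 0.0303) and after withdrawal against 2 days (-1.10, adjusted p = 0.0393), and the Cdk6 step from 6 to 12 h was lost (adjusted p = 0.0597). That step was also lost under trimmed means of M values (adjusted p = 0.0516) and upper quartiles (adjusted p = 0.0544).

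Sign reversals occurred for changes that were not called. Cdk4 at 4 h against 2 h was 0.0042 under trimmed means of M values and 0.0018 under upper quartiles, and Cdkn1b at 2 days against untreated cells was 0.0053 under upper quartiles. With 1 library left out, the ranges against untreated cells that crossed 0 were, at 2 h, -0.014 to 0.21 for Ccnd1, -0.40 to 0.28 for Ccnd3, -0.12 to 0.064 for Cdk4 and -0.23 to 0.067 for Cdkn1b. At 4 h they were -0.041 to 0.19 for Ccnd1, -0.42 to 0.26 for Ccnd3, -0.13 to 0.060 for Cdk4, -0.30 to 0.039 for Cdk6 and -0.23 to 0.072 for Cdkn1b. At 6 h they were -0.19 to 0.032 for Ccnd1, -0.52 to 0.17 for Ccnd3 and -0.26 to 0.036 for Cdkn1b, and at 12 h -0.051 to 0.25 for Cdkn1b. At 1 day they were -1.23 to 0.18 for Ccnd2, -0.13 to 0.059 for Cdk4 and -0.13 to 0.18 for Cdkn1b, and at 2 days -0.21 to 0.090 for Cdkn1b. After withdrawal they were -0.15 to 0.078 for Ccnd1, -0.90 to 0.51 for Ccnd2, -0.40 to 0.28 for Ccnd3, -0.54 to 0.23 for Rb1 and -0.0041 to 0.077 for Rbl2. Against 2 h they were, at 4 h, -0.89 to 0.37 for Ccnd2, -0.0765 to 0.036 for Ccnd3, -0.024 to 0.014 for Cdk4 and -0.14 to 0.15 for Cdkn1b, at 6 h -1.10 to 0.16 for Ccnd2 and -0.088 to 0.027 for Cdkn1b, and at 12 h -1.03 to 0.23 for Ccnd2.

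Each group has 2 libraries, and how far the spread between them or depth limits each member was not tested. The cause of each shift was not tested except where a fit has fewer samples by construction. Changes of Ccnd2, at 21.5 to 123 normalized counts, carried an SE of 0.45, the largest among the 9.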
